A study of Mus musculus with 40 samples.

Results

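The question here was how the subcutaneous fat of mice kept on a high-fat diet (HFD) differed when the mice also received semaglutide. The 16 libraries of the HFD-fed semaglutide and HFD-fed groups, 8 in each, were taken by their labels from a series of 40 libraries of mouse subcutaneous white adipose tissue (sWAT). Both groups ate the high-fat diet, and the labels name semaglutide as the only difference between them. The other 24 libraries came from mice on a normal diet (ND), mice on HFD with tirzepatide and mice switched from HFD back to ND. They entered the fit for the estimate of spread. The sources used here do not give strain, age, sex, dose, duration, any vehicle injection for the controls or the hour of tissue collection. Nothing in the labels says that the 8 libraries of a group came from separate animals, so the p-values measure the spread between these libraries.

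Semaglutide is a long-lasting agonist of the GLP-1 receptor, which acts in the pancreas and brain to raise insulin release and lower food intake. White fat stores fatty acids as triglyceride in lipid droplets and releases them in fasting. On a high-fat diet fat cells enlarge, secrete more leptin, remodel the collagen around them and attract macrophages.

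HFD libraries held 3144870 to 5489030 counts (median 3882000) and semaglutide libraries 3134115 to 4203802 (median 3676000). Fat cell markers were abundant in both groups: the 23 adipocyte genes tested summed to 33170 to 43040 CPM (counts scaled to a common library total) with HFD and 22370 to 41790 CPM with semaglutide. Semaglutide libraries 1, 3 and 8 were rich in lymphocyte RNA. Their mean over 5 B cell genes, Cd79a, Cd79b and Ms4a1 among them, was 6.58, 5.50 and 5.54 log2 CPM. The other 5 semaglutide libraries lay between -0.38 and 0.54, and the HFD libraries between -0.25 and 1.04. Cd79a, a part of the B cell receptor, reached 221.7, 90.8 and 142.4 CPM in those 3 libraries and at most 2.33 CPM in the other 5. Ms4a1, which encodes CD20, reached 63.2, 58.8 and 32.8 CPM there and at most 1.59 CPM in the rest of the group. Results are given with all libraries, and the fit without the 4 libraries rich in B cell genes (these 3 and ND 5) stands beside the gene lists. Muscle genes summed to 100.1 to 1349 CPM with HFD and 87.3 to 550.1 CPM with semaglutide.

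**Figure D1:**
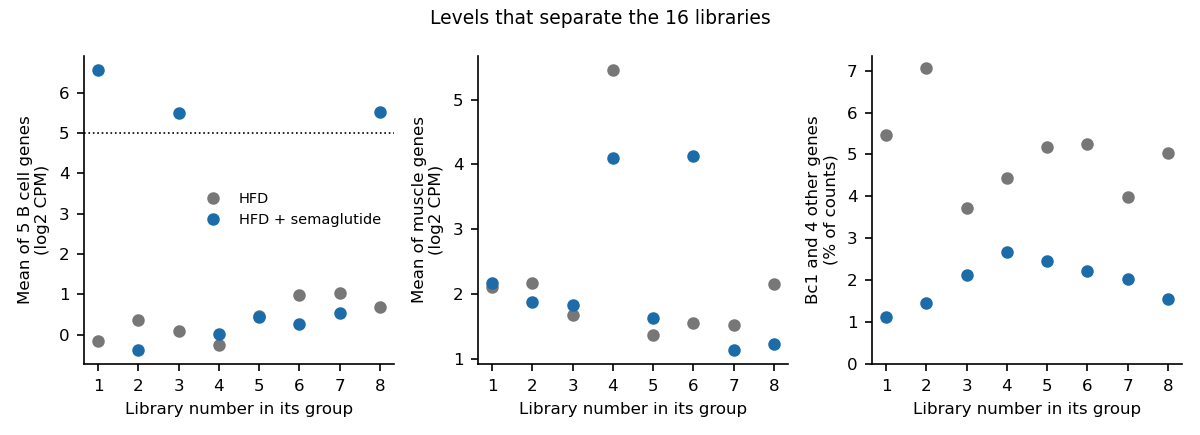
Mean level of 5 B cell genes (left, log2 CPM), mean level of muscle genes (middle, log2 CPM) and share of counts in Bc1 and 4 other genes (right, percent) in each HFD (grey) and semaglutide (blue) library, by library number. Semaglutide 1, 3 and 8 lie above the dotted line at 5 in the left panel, and all semaglutide libraries lie below all HFD libraries in the right panel.

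Semaglutide was followed by more genes at a lower than at a higher level. Of 15807 genes tested, 241 rose and 415 fell (edgeR's quasi-likelihood test, Benjamini-Hochberg adjusted p under 0.05 over all genes tested), and 3100 had an unadjusted p under 0.05. This is 4.15% of the genes tested, 1.52% called higher and 2.63% called lower, and these shares stand beside the lists below. The share called grew with the mean level, from 1.94% below 2 log2 CPM to 4.56% at 4 to 6 and 8.48% at 6 to 8. It was 9.82% at 8 to 10 and 16.2% at 10 or more. Lists of abundant genes, such as those of fat cells and collagens, therefore have a higher background than 4.15%. The median log2 fold change over all genes tested was 0.05. More than 2-fold changes were called in 107 genes that rose and 169 that fell. At a level of 10 log2 CPM or more, 11 of 80 genes fell and 2 rose. The 11 include Bc1, Lrrc17, Elp6, Akap5 and Tatdn1, whose levels kept near-constant ratios to each other, so they are not separate signals. Without the libraries rich in B cell genes 127 genes rose (0.773% of 16429 tested) and 285 fell (1.73%), 2.51% in all, and 343 of the 656 genes were called again. The number of called genes moved with single libraries. It was 437 without HFD 5, 440 without HFD 2 and 446 without semaglutide 1, and 789 without semaglutide 5. In bulk tissue, fewer cells of a type and less RNA per cell cannot be told apart.

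**Figure D2:**
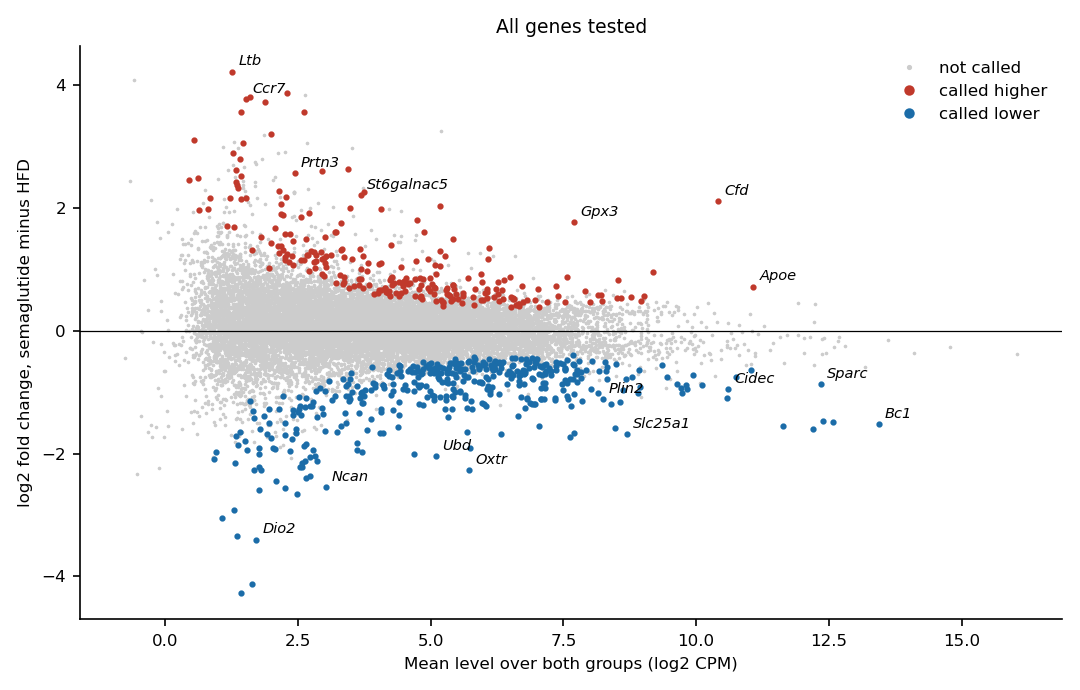
Log2 fold change, semaglutide minus HFD, against the mean level over both groups (log2 CPM) for the 15807 genes tested. Red points are the 241 genes called higher, blue points the 415 called lower and grey points the rest. Ltb and Ccr7, lymphocyte genes, lie at the top left and Cfd at the top right.

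Among genes named by rank, several genes of fat cells were near the top of the increases. Log2 fold changes are semaglutide minus HFD with the standard error of the fit, and levels are CPM given as lowest, median and highest of 8 libraries. Cfd encodes adipsin, the complement factor D that fat cells secrete, and lies at chr10:79890853-79892655 (GRCm38.p6). Its level was 270.5, 643 and 1649 CPM with HFD and 887.8, 3209 and 7877 CPM with semaglutide, a rise of 2.1 ± 0.34 (adjusted p = 0.000138). Of the 8 semaglutide libraries 7 lay above the highest HFD library, and library 3, with 887.8 CPM, lay within the HFD range. Gpx3 (chr11:54902854-54910387) encodes a secreted glutathione peroxidase. It had 68.9, 135.9 and 190.3 CPM with HFD and 166.2, 346.5 and 695.8 CPM with semaglutide, a rise of 1.76 ± 0.24 (adjusted p = 1.72e-05). Here too 7 of 8 semaglutide libraries were above every HFD library.

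St6galnac5 (chr3:152819885-152982210) encodes a sialyltransferase that adds sialic acid to glycolipids, and it had the largest rise among the genes named by rank. Its level was 1.88, 5.69 and 13.5 CPM with HFD and 12.4, 30.6 and 46.8 CPM with semaglutide (2.20 ± 0.32, adjusted p = 3.98e-05). The groups overlapped in the lowest semaglutide library alone. Fam13a, a gene that genetic studies tie to body fat distribution, rose by 1.5 ± 0.34 (adjusted p = 0.00587). Slc1a3, a glutamate transporter, rose by 1.35 ± 0.24 (adjusted p = 0.000426). Fgf2, a growth factor bound to the matrix, rose by 1.16 ± 0.24 (adjusted p = 0.00196).

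Ikzf2 and Dock11 were the genes of this set whose 8 semaglutide libraries all lay above all HFD libraries. Ikzf2 encodes the transcription factor Helios and went from 5.71, 7.69 and 13.9 CPM to 14.2, 17.6 and 30.9 CPM (1.21 ± 0.22, adjusted p = 0.000366). Dock11, an activator of the GTPase Cdc42, went from 3.99, 11.7 and 16.9 CPM to 17.7, 22.2 and 32.7 CPM (1.08 ± 0.23, adjusted p = 0.00327). Both genes are also expressed in lymphocytes. Without the libraries rich in B cell genes their rises were 0.92 (adjusted p = 0.0148) and 0.90 (adjusted p = 0.04). Ivns1abp, which encodes a protein that binds actin, rose by 1.16 ± 0.21 (adjusted p = 0.000299). Groups without overlap were found in 188 genes, 1.19% of those tested, and 27 (0.171%) of these had every semaglutide library above every HFD library.

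Among genes named by rank, the decreases were led by genes at low and middle levels in HFD fat. Ncan encodes neurocan, a chondroitin sulfate proteoglycan best known from the brain. It had 14.4, 17.9 and 31.7 CPM with HFD and 0.53, 3.22 and 7.21 CPM with semaglutide, and fell by 2.54 ± 0.41 on the log2 scale (adjusted p = 0.000138). No semaglutide library reached the HFD range. Oxtr, the oxytocin receptor (chr6:112473683-112491035), had 53.2, 143.7 and 213.2 CPM with HFD and 4.49, 20.2 and 74.4 CPM with semaglutide. It fell by 2.27 ± 0.44 (adjusted p = 0.0014), and 6 of 8 semaglutide libraries were below every HFD library. Ubd, a ubiquitin-like protein raised by inflammatory cytokines (chr17:37193892-37196101), had 29.8, 75.7 and 108.3 CPM with HFD and 5.08, 13.7 and 43.5 CPM with semaglutide. It fell by 2.05 ± 0.40 (adjusted p = 0.00147), again with 6 of 8 libraries below the HFD range.

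Genes without overlap made up most of the other large decreases. Clstn3, whose beta form in adipocytes is known to bind the droplet protein CIDE, had 28.6, 57.9 and 81.8 CPM with HFD and 5.62, 12.4 and 21.9 CPM with semaglutide. It fell by 2.01 ± 0.32 (adjusted p = 0.000114), and the groups did not overlap. Adam12, a membrane metalloprotease of growing fat tissue, fell by 1.97 ± 0.33 (adjusted p = 0.000155). Paqr9, a membrane protein of the progestin and adiponectin receptor family, had 274.9, 374.4 and 493 CPM with HFD and 62.3, 110.1 and 196.4 CPM with semaglutide (adjusted p = 2.47e-05). It fell by 1.73 ± 0.25, with all 8 semaglutide libraries below all HFD libraries.

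Cdkn1a encodes p21, the cell cycle inhibitor linked to senescence. It had 266.8, 371.1 and 542.9 CPM with HFD and 65.8, 121.6 and 203.5 CPM with semaglutide, and fell by 1.66 ± 0.23 (adjusted p = 1.72e-05) without overlap. Mtarc1, a mitochondrial reductase tied to liver fat in human genetics, fell by 1.83 ± 0.34 (adjusted p = 0.000542). Ret, the receptor tyrosine kinase of GDNF ligands, fell by 1.66 ± 0.28 (adjusted p = 0.000138). The histone gene H3c15 also fell, by 1.67 ± 0.39 (adjusted p = 0.0089). With the Cd79b level as a covariate its adjusted p was 0.0577. Over all genes, 161 (1.02%) had every semaglutide library below every HFD library.

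**Figure D3:**
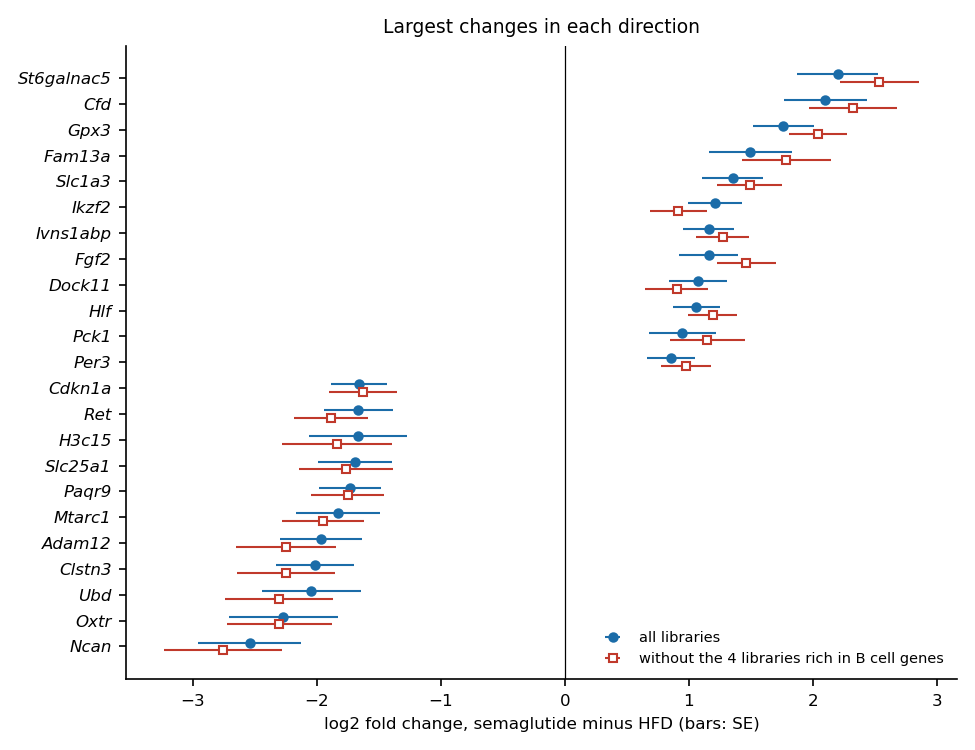
Log2 fold change, semaglutide minus HFD, with its standard error for the 12 largest increases and 11 of the 12 largest decreases among genes named by rank. The rank rules included a mean of at least 3 log2 CPM, so larger called changes outside them are not shown. Symbols give the fit of all libraries (blue circles) and the fit without the 4 libraries rich in B cell genes (open red squares). Of the genes shown, St6galnac5 leads the increases at 2.20 and Ncan the decreases at -2.54. The pairs of symbols lie on the same side of 0 for every gene shown.

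Among enzymes of cholesterol synthesis, most members had lower levels and none was called higher. Of 20 members tested, 7 fell (35%) and 0 rose, with a median log2 fold change of -0.75 beside 0.05 over all genes. The other 13 were not called. Without the libraries rich in B cell genes 7 fell and 0 rose, and with the B cell mean as a covariate 4 fell and 0 rose. Lss, lanosterol synthase, which closes the sterol rings, had 9.82, 16.4 and 24.0 CPM with HFD and 3.14, 6.08 and 7.91 CPM with semaglutide. It fell by 1.55 ± 0.29 (adjusted p = 0.000542), and the groups did not overlap. Nsdhl, which removes methyl groups from the sterol ring, had 46.7, 56.5 and 117.9 CPM with HFD and 17.9, 23.6 and 41.0 CPM with semaglutide (a fall of 1.41 ± 0.27, adjusted p = 0.000948).

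Pmvk, phosphomevalonate kinase, fell by 1.07 ± 0.19 (adjusted p = 0.000336), again without overlap. Dhcr7, the last enzyme on one branch to cholesterol, fell by 0.93 ± 0.20 (adjusted p = 0.00312), and 4 of its 8 semaglutide libraries lay below the HFD range. The other members called were Fdps (-1.01), Cyp51 (-0.92) and Hmgcs1 (-0.84). Sqle, squalene epoxidase, stood at -0.22 and Idi1 at 0.35, and neither was called. Among 16 genes of cholesterol sensing and transport, 3 fell and 1 rose (2 and 1 without the libraries rich in B cell genes). Npc2, which moves cholesterol out of lysosomes, fell by 0.72 ± 0.16 (adjusted p = 0.00382). Apoe, the apolipoprotein that carries cholesterol out of cells, rose from 1286, 1766 and 2194 CPM to 1740, 2993 and 3435 CPM (0.72 ± 0.15, adjusted p = 0.0024). Insig1 fell by 1.19 ± 0.29 (adjusted p = 0.0105, and 0.0582 with the Cd79b level as a covariate). Srebf2, the transcription factor of the pathway, stood at 0.06 and was not called.

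Promoters of 4 of the enzymes that fell are shown. In this list 18 of 20 members had a negative log2 fold change and 2 a positive one. RefSeq promoters (GRCm38.p6, 250 bases before to 50 after a start, any start of a gene, both strands) were matched by symbol to 15 of the 20 sterol genes. The letters CCAAT, the box bound by NF-Y, were in 14 of the 15 (93.3%), beside 42.6% of the 10069 tested genes with a promoter and 10 of 11 clock genes. The letters TCACNCCAC of a sterol regulatory element were in 1 of the 15 (Hmgcs1), beside 1.31% of tested genes. CCAAT was searched after the other motif had been looked at. Each window below holds 80 bases upstream of a start (bases 80 to 1 before it for Lss and Nsdhl, 141 to 62 for Pmvk and 181 to 102 for Hmgcs1), 5′ to 3′ on the strand of the gene, with the matched letters in capitals (CCAAT or its complement ATTGG, and the sterol element in Hmgcs1). The windows are chr10:76531525-76531604 (+) for Lss, chrX:72918441-72918520 (+) for Nsdhl, chr3:89454400-89454479 (+) for Pmvk and chr13:119690170-119690249 (+) for Hmgcs1.
Lss: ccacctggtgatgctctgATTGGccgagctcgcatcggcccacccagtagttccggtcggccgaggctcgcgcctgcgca
Nsdhl: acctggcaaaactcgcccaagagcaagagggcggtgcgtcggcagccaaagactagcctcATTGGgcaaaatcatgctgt
Pmvk: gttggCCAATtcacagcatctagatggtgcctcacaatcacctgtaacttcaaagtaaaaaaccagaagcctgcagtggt
Hmgcs1: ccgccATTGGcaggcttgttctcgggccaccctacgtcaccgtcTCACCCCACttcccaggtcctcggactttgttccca

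Several genes of fatty acid synthesis and its supply fell. Of 22 members tested, 8 fell (36.4%) and 0 rose, with a median of -0.29, and without the libraries rich in B cell genes 6 fell and 1 rose. Slc25a1, the carrier that exports citrate from mitochondria as the carbon source of fatty acids (chr16:17925211-17928219), had 432.9, 721.4 and 1192 CPM with HFD. With semaglutide it had 185.8, 226.3 and 357.9 CPM. It fell by 1.69 ± 0.30 (adjusted p = 0.00039), and the groups did not overlap. Me1, malic enzyme, which supplies NADPH, fell by 1.14 ± 0.23 (adjusted p = 0.00164), from a median of 244.2 to 120 CPM. In the list of NADPH and pentose phosphate genes 2 of 11 fell and 0 rose (1 and 0 without the libraries rich in B cell genes), and Pgd (-0.76) and G6pdx (-0.41) of the pentose phosphate pathway were not called.

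Pcx, pyruvate carboxylase, which makes the oxaloacetate joined to acetyl-CoA in citrate, had 205.4, 273.7 and 286.6 CPM with HFD. With semaglutide it had 123.4, 152.9 and 183.7 CPM (a fall of 0.78 ± 0.17, adjusted p = 0.00297), without overlap. Acsl1, the main acyl-CoA synthetase of fat cells, fell by 0.88 ± 0.21 (adjusted p = 0.00756). The core enzymes were not called. Fasn, fatty acid synthase, had 736, 1036 and 1247 CPM with HFD and 300.9, 436.3 and 1141 CPM with semaglutide. It stood at -0.94 ± 0.34 and was not called (adjusted p = 0.108). Of the 8 semaglutide libraries 7 were below every HFD library, and library 8 had 1141 CPM. Fasn was called with semaglutide 8 left out (-1.21, adjusted p = 0.0345), and also when only the 2 groups were fitted (adjusted p = 0.00925). It was called too with a replicate block, by limma-voom and without the libraries rich in muscle genes. The fit of the 2 groups without the libraries rich in B cell genes also called it (-1.31). Acaca stood at 0.09, Acly at -0.44 and Scd1 at 0.45, and these were not called. Fads1, the delta-5 desaturase of polyunsaturated fatty acids, rose by 0.77 ± 0.17 (adjusted p = 0.00489), from 10.9, 16.9 and 26.9 CPM to 25.5, 30.7 and 38.5 CPM.

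Triglyceride assembly genes fell at an early and at the final step. Of 13 members tested, 4 fell (30.8%) and 0 rose (3 and 0 without the libraries rich in B cell genes). Agpat2, which adds the fatty acid to lysophosphatidic acid and is mutated in a congenital lipodystrophy, had 222.9, 290.8 and 343.3 CPM with HFD and 91.9, 119.4 and 222.1 CPM with semaglutide. It fell by 1.11 ± 0.24 (adjusted p = 0.00367), and the groups did not overlap. Dgat1, an enzyme of the final step, fell by 0.72 ± 0.16 (adjusted p = 0.00355). Dgat2, the other final enzyme, fell by 1.09 ± 0.27 (adjusted p = 0.0128, and 0.0584 without the libraries rich in B cell genes). Gpd1, which makes glycerol 3-phosphate, had 855, 1162 and 1495 CPM with HFD and 466.7, 605 and 802.3 CPM with semaglutide. It fell by 0.93 ± 0.18 (adjusted p = 0.0012), with all 8 semaglutide libraries below all HFD libraries.

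Several lipid droplet proteins fell, and the main lipases were not called. Of 18 members tested, 6 fell (33.3%) and 0 rose (5 and 0 without the libraries rich in B cell genes). Plin2, a coat protein of growing droplets, had 326.3, 443.1 and 596.1 CPM with HFD and 135.3, 203.8 and 282 CPM with semaglutide. It fell by 1.11 ± 0.16 (adjusted p = 1.72e-05), and the groups did not overlap. Cidec, which fuses droplets into the large one of a white fat cell, had 1820, 2216 and 3105 CPM with HFD and 647.4, 1154 and 1686 CPM with semaglutide. It fell by 0.96 ± 0.17 (adjusted p = 0.000352), also without overlap.

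Hilpda, an inhibitor of the lipase ATGL, fell by 1.65 ± 0.29 (adjusted p = 0.000304). Plin5, a droplet protein of tissues that burn fat, fell by 1.18 ± 0.26 (adjusted p = 0.00359). Bscl2, which encodes seipin at the sites where droplets form, was picked after its values were seen and fell by 0.96 ± 0.17 (adjusted p = 0.000273). Pnpla2 (ATGL) stood at -0.01, Lipe (hormone-sensitive lipase) at -0.03 and Plin1 at -0.03, and none of the 3 was called. Adrb3, the beta-3 adrenergic receptor of fat cells, had 18.8, 40.2 and 82.1 CPM with HFD and 30.0, 71.4 and 167.9 CPM with semaglutide. It stood at 1.02 ± 0.34 and was not called (adjusted p = 0.0768).

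Genes of fatty acid uptake and binding included further decreases. Of 14 members tested, 5 fell (35.7%) and 0 rose (4 and 0 without the libraries rich in B cell genes). Fabp5, a fatty acid binding protein of fat cells and macrophages, had 353.6, 627.7 and 740.6 CPM with HFD and 153.3, 281.9 and 327 CPM with semaglutide. It fell by 1.16 ± 0.20 (adjusted p = 0.000155) without overlap. Vldlr, a lipoprotein receptor, fell by 0.78 ± 0.20 (adjusted p = 0.0137), and Angptl4, an inhibitor of lipoprotein lipase, by 0.87 ± 0.22 (adjusted p = 0.013). With the Cd79b level as a covariate these 2 had adjusted p values of 0.0717 and 0.129. Lpl itself stood at -0.55, Cd36 at -0.20 and Fabp4 at -0.25, and these were not called.

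No gene of the fat-burning lists below was called higher. In fatty acid oxidation, 5 of 23 members fell (21.7%) and 0 rose, and 1 fell without the libraries rich in B cell genes. That member was Slc25a20, the carnitine carrier of mitochondria, which had 41.9, 59.5 and 78.2 CPM with HFD and 23.1, 32.7 and 45.5 CPM with semaglutide (-0.86 ± 0.17, adjusted p = 0.00136). Of its 8 semaglutide libraries 7 lay below the HFD range. Of 25 nuclear genes of the respiratory chain, 0 were called, with a median of -0.19. None of 9 genes of creatine and calcium cycling and none of 19 genes of branched-chain amino acid breakdown was called.

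Among 13 brown and beige adipocyte genes tested, 3 fell and 0 rose (3 and 0 without the libraries rich in B cell genes). Dio2, the deiodinase that activates thyroid hormone (chr12:90724552-90739038), had 4.69, 7.79 and 16.9 CPM with HFD and 0, 0.55 and 2.22 CPM with semaglutide. It fell by 3.40 ± 0.54 (adjusted p = 0.000102), and no semaglutide library reached the HFD range. Kcnk3, a potassium channel of brown fat, had 111.1, 155.5 and 197.9 CPM with HFD and 40.7, 70.9 and 103.9 CPM with semaglutide (-1.08 ± 0.18, adjusted p = 0.000138), also without overlap. Otop1, a proton channel of brown fat, fell by 1.94 ± 0.48 (adjusted p = 0.0129). Ucp1, the uncoupling protein, lay between 0 and 1.5 CPM in the HFD libraries and between 0 and 0.68 CPM in 7 semaglutide libraries, with 11.4 CPM in semaglutide 8. Its value of 2.12 ± 1.42 was not called, and without semaglutide 8 it was -1.05.

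Genes of sugar use included increases and decreases. Of 23 genes of insulin signalling and glucose use, 2 rose and 0 fell (8.7%), and 2 rose and 1 fell without the libraries rich in B cell genes. Irs1, the docking protein of the insulin receptor, had 16.6, 22.6 and 25.9 CPM with HFD and 21.7, 38.2 and 64.4 CPM with semaglutide, a rise of 0.83 ± 0.20 (adjusted p = 0.00871). Of the 8 semaglutide libraries 7 lay above the highest HFD library. Pck1, an enzyme on the route from pyruvate to glycerol 3-phosphate in fat, had 220.1, 414.7 and 664.2 CPM with HFD and 553.6, 740.5 and 1306 CPM with semaglutide. It rose by 0.95 ± 0.27 (adjusted p = 0.0332), but was not called without HFD 2, 3, 4, 5 or 6 or without semaglutide 2 or 4 (adjusted p up to 0.0754). Slc2a4, the insulin-responsive glucose carrier, stood at -0.16. In glycolysis, a list added after values were seen, 4 of 19 members fell and 0 rose (3 and 0 without the libraries rich in B cell genes). Aldoa, aldolase A, fell by 0.76 ± 0.19 (adjusted p = 0.0111), from 470.5, 562.8 and 753.9 CPM to 264.2, 352.2 and 437.4 CPM, without overlap.

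Several collagen chains and elastin fell. Of 21 collagen chains tested, 5 fell (23.8%) and 0 rose, with a median of -0.57, and without the libraries rich in B cell genes the counts were 5 and 0. Col4a1 and Col4a2 form the sheet around each fat cell and vessel. Col4a1 had 792.6, 943.6 and 995.3 CPM with HFD and 342, 532.8 and 741.1 CPM with semaglutide (-0.76 ± 0.16, adjusted p = 0.00188). Col4a2 had 572.7, 684.9 and 826.2 CPM with HFD and 201.9, 330.9 and 462 CPM with semaglutide (-1.02 ± 0.17, adjusted p = 0.000162). Neither gene overlapped between the groups. Col15a1, a linker of basement membranes, fell by 1.03 ± 0.22 (adjusted p = 0.00232) without overlap. Col18a1, which yields endostatin, fell by 0.69 ± 0.18 (adjusted p = 0.0172, and 0.174 with the Cd79b level as a covariate). The low basement membrane chains Col4a3 (-0.27) and Col4a5 (-0.51) were not called. The fibrillar chains Col1a1 (-0.37), Col1a2 (-0.27) and Col3a1 (-0.46) and the collagen VI chains Col6a1 (-0.66), Col6a2 (-0.73) and Col6a3 (-0.43) were not called.

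Of 34 other matrix genes, 4 fell and 1 rose (14.7%), and 3 fell and 1 rose without the libraries rich in B cell genes. Eln, elastin, had 138.9, 168.3 and 324.7 CPM with HFD and 64.7, 97.8 and 125.5 CPM with semaglutide, and fell by 1.11 ± 0.21 (adjusted p = 0.000898). The groups did not overlap. Plod3, a lysyl hydroxylase of collagen, fell by 0.87 ± 0.18 (adjusted p = 0.00188). Thbs2, an inhibitor of vessel growth, rose by 0.91 ± 0.23 (adjusted p = 0.0143). Sparc, a collagen chaperone, fell by 0.87 ± 0.20 from a median of 7299 to 4016 CPM (adjusted p = 0.00593), and had an adjusted p of 0.0768 with the Cd79b level as a covariate. Anxa2, a calcium-binding membrane protein picked after its values were seen, fell by 1.01 ± 0.18 (adjusted p = 0.000299).

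Some genes of contractile vessel cells fell. Of 12 mural cell genes, 3 fell (25%) and 0 rose (2 and 0 without the libraries rich in B cell genes). Cspg4, the NG2 proteoglycan of pericytes, had 75.9, 86.5 and 134.5 CPM with HFD and 26.4, 50.5 and 66.5 CPM with semaglutide (-0.95 ± 0.17, adjusted p = 0.000239). Mylk, myosin light chain kinase, fell by 0.93 ± 0.19 (adjusted p = 0.00196), and neither gene overlapped between groups. Myh11 fell by 1.08 ± 0.27 (adjusted p = 0.0121), a call that was lost without HFD 1 (-0.72, adjusted p = 0.0639) and without the libraries rich in B cell genes (adjusted p = 0.0529). Of 20 endothelial genes, 1 fell (5%, near the background share of called genes, and also 1 without those libraries): Cldn5, the tight junction claudin, went from 59.2, 101.8 and 130.7 CPM to 35.7, 48.6 and 64.7 CPM (-0.99 ± 0.20, adjusted p = 0.00141). Pecam1 stood at -0.32 and Cdh5 at -0.42, and these were not called.

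Some repressors of the circadian clock rose, and others were not called. Clock proteins CLOCK and BMAL1 drive the Per, Cry and Rev-erb genes, whose products feed back to shut them off. Of 14 clock genes tested, 4 rose (28.6%) and 0 fell, and the counts were 4 and 0 without the libraries rich in B cell genes. Of the 14, 9 had a positive log2 fold change and 5 a negative one. Per1, Cry1, Cry2 and Nr1d1 were not called. Per3 had 21.8, 39.2 and 63.1 CPM with HFD and 43.1, 69.8 and 100.1 CPM with semaglutide (0.86 ± 0.20, adjusted p = 0.00574). Per2 had 12.5, 15.4 and 19.3 CPM with HFD and 14.3, 33.4 and 47.5 CPM with semaglutide (1.03 ± 0.24, adjusted p = 0.00781). Of the 8 semaglutide libraries 6 (Per3) and 7 (Per2) lay above the highest HFD library. Nr1d2, which encodes the repressor REV-ERB beta, rose by 0.85 ± 0.19 (adjusted p = 0.00408). Ciart, a further repressor, rose by 1.37 ± 0.39 at a median of 2.36 CPM with HFD and 6.41 CPM with semaglutide (adjusted p = 0.0303). Its call was lost without HFD 2, 3, 6, 7 or 8 or without semaglutide 2 or 7 (adjusted p up to 0.0884).

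Of the 4 clock output factors, which bind D-boxes, Hlf rose and Nfil3 fell. Hlf, an activator, had 17.8, 25.2 and 27.8 CPM with HFD and 27.2, 49.9 and 65.2 CPM with semaglutide (1.06 ± 0.19, adjusted p = 0.000336). Nfil3, a repressor at the same sites, had 1.41, 4.59 and 10.5 CPM with HFD and 0.32, 1.36 and 2.48 CPM with semaglutide (-1.93 ± 0.48, adjusted p = 0.0128). Of the 8 semaglutide libraries 7 lay above the HFD range for Hlf and 5 below it for Nfil3. Arntl, which encodes BMAL1, stood at -0.59, Dbp at 1.30 and Tef at 0.56, and these were not called. Tissue collection time is not given in the sources used here, and its part in these values was not tested.

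Promoters of a pair of clock genes that rose are shown for the sites through which the clock is known to act on its own genes. The E-box letters CACGTG were in 4 of 11 clock genes with a RefSeq promoter (Per1, Cry1, Ciart and Bhlhe41), beside 11.4% of tested genes. The D-box letters TTATGTAA, searched after values were seen, were in Per3 alone of the 11, beside 0.725% of tested genes. The windows hold 80 bases upstream of the start (bases 80 to 1 before it for Ciart and 210 to 131 for Per3), 5′ to 3′ on the strand of the gene, at chr3:95882229-95882308 (-) for Ciart with its E-boxes in capitals. For Per3 the window is chr4:151044796-151044875 (-) with its D-boxes in capitals.
Ciart: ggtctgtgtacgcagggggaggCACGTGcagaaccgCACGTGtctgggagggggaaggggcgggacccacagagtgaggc
Per3: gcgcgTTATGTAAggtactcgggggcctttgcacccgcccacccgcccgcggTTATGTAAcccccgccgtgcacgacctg

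Most genes of an acute phase list fell. In that list, added after values were seen, 8 of 14 members fell and 2 rose, and 5 fell and 1 rose without the libraries rich in B cell genes. Lbp, which binds bacterial lipopolysaccharide, had 118.9, 169.9 and 222.2 CPM with HFD and 22.7, 62.1 and 111.4 CPM with semaglutide. It fell by 1.39 ± 0.22 (adjusted p = 9.65e-05), and the groups did not overlap. Orm1 and Orm2, the orosomucoids, fell by 1.10 ± 0.26 (adjusted p = 0.0072) and 1.19 ± 0.26 (adjusted p = 0.00342). Their sequences are close, so counts may be shared between them. Lrg1, a leucine-rich glycoprotein, fell by 0.88 ± 0.20 (adjusted p = 0.00446) from a median of 1288 to 681.3 CPM. Hp, haptoglobin, fell by 0.96 ± 0.24 (adjusted p = 0.0131), and its adjusted p was 0.0575 without the libraries rich in B cell genes. Of 18 complement genes, Cfd rose and 2 fell (2 rose and 1 fell without the libraries rich in B cell genes). C6, a part of the membrane attack complex, had 24.9, 36.4 and 51.2 CPM with HFD and 6.15, 11.9 and 20.5 CPM with semaglutide (-1.57 ± 0.31, adjusted p = 0.00133), without overlap.

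Few macrophage genes were called. Of 20 genes of lipid-associated macrophages, 2 fell (10%) and 0 rose, with a median of -0.38. The counts were 2 and 0 without the libraries rich in B cell genes, and 5 and 0 when only the 2 groups were fitted. The log2 fold change was negative in 18 members and positive in 2. The 2 called with all libraries were Fabp5, also a fat cell gene, and Ctsd, a lysosomal protease that many cells make. Ctsd had 567.3, 676.1 and 798.3 CPM with HFD and 264.7, 367.9 and 519.3 CPM with semaglutide (-0.91 ± 0.16, adjusted p = 0.000176). Trem2, the lipid receptor that defines these macrophages, stood at -0.72, Cd68 at -0.34 and Lgals3 at -0.80, and these were not called. Lgals3 was called lower in 5 alternative fits, among them DESeq2 and limma-voom. None of 15 resident macrophage genes was called, and their summed level was 1434 to 2352 CPM with HFD and 1163 to 1934 CPM with semaglutide. Of 23 interferon response genes, 1 fell and 0 rose, in both fits.

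Sesn2 and Ddit4, both known to restrain the growth kinase complex mTORC1, fell. Sesn2, which senses leucine, had 17.7, 28.9 and 57.0 CPM with HFD and 10.5, 12.5 and 15.2 CPM with semaglutide (-1.28 ± 0.24, adjusted p = 0.000669). Ddit4, which encodes REDD1, had 103.7, 161 and 251.4 CPM with HFD and 55.9, 72.5 and 88.8 CPM with semaglutide (-1.25 ± 0.25, adjusted p = 0.00156). Neither gene overlapped between the groups. They came from a list of amino acid supply genes in which 3 of 15 fell and 0 rose (2 and 0 without the libraries rich in B cell genes). The synthesis enzymes in it, such as Asns (0.12), Phgdh (-0.10) and Psat1 (-0.18), were not called. None of 22 genes of protein folding and the unfolded protein response and none of 19 cell division genes was called. In 25 antioxidant genes, Gpx3 rose and 2 fell (1 and 1 without the libraries rich in B cell genes). Of 26 glutathione transferases and related enzymes, 2 rose and 2 fell (3 and 1 without those libraries), with Gstt1 at 0.74 ± 0.18 (adjusted p = 0.00832).

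Most identity genes of fat cells were not called. Of 23 tested, Cfd rose and Cidec and Gpd1 fell, and the counts were also 1 and 2 without the libraries rich in B cell genes. Adipoq, adiponectin, had 1707, 2419 and 2765 CPM with HFD and 1379, 2375 and 3138 CPM with semaglutide (-0.05 ± 0.17, not called). Its sign turned to 0.04 with the libraries rich in B cell genes left out. Pparg stood at 0.31, Cebpa at -0.13 and Retn at -0.19, and these were not called. Ptger3, a prostaglandin receptor that restrains lipolysis, fell by 0.90 ± 0.23 (adjusted p = 0.0143). Nnat, neuronatin, rose by 0.82 ± 0.21 (adjusted p = 0.0178) from 183.9, 269.3 and 434.4 CPM to 282.1, 535.4 and 699 CPM. The melanocortin accessory protein gene Mrap and the amino acid carrier gene Slc36a2, both picked after their values were seen, fell by 1.10 ± 0.16 (adjusted p = 2.13e-05) and 1.19 ± 0.17 (adjusted p = 1.72e-05) without overlap.

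Genes tied to fat cell size differed among the semaglutide libraries themselves. Lep, leptin, had 1629, 1868 and 1999 CPM with HFD and 386.9, 879.1 and 2396 CPM with semaglutide. The SD of its log2 level was 0.107 with HFD and 0.847 with semaglutide. Semaglutide 3 (2396 CPM) lay above every HFD library, 5 (1895 CPM) within the HFD range and the other 6 below it. Lep was not called (-0.74 ± 0.29, adjusted p = 0.139). With semaglutide 3 left out it was called (-1.01, adjusted p = 0.0308). Lep was also called by limma-voom. The same 2 libraries had the highest semaglutide values of 5 other genes of HFD fat. Oxtr reached 74.4 and 70.2 CPM in them, where the other 6 had at most 22.3 CPM. Ubd reached 43.5 and 30.7 CPM there and at most 17.7 CPM in the other 6. Mest, an early marker of fat cell growth, had 55.2 and 66.2 CPM there and 1.85 to 46.5 CPM in the rest. Npr3 and Sfrp5 were also highest in libraries 3 and 5. Cfd (887.8 and 1992 CPM) and Adrb3 (30.0 and 42.1 CPM) had their 2 lowest semaglutide values in these libraries. Library 1 had the lowest level of Lep, Oxtr, Mest, Npr3 and Sfrp5. It also had the highest B cell mean, 6.58 log2 CPM. Its adipocyte genes had the lowest sum, 22370 CPM beside 27690 to 41790 CPM in the other semaglutide libraries. These libraries were singled out after their values were seen. Libraries 1 and 3 but not library 5 are rich in B cell genes.

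**Figure D4:**
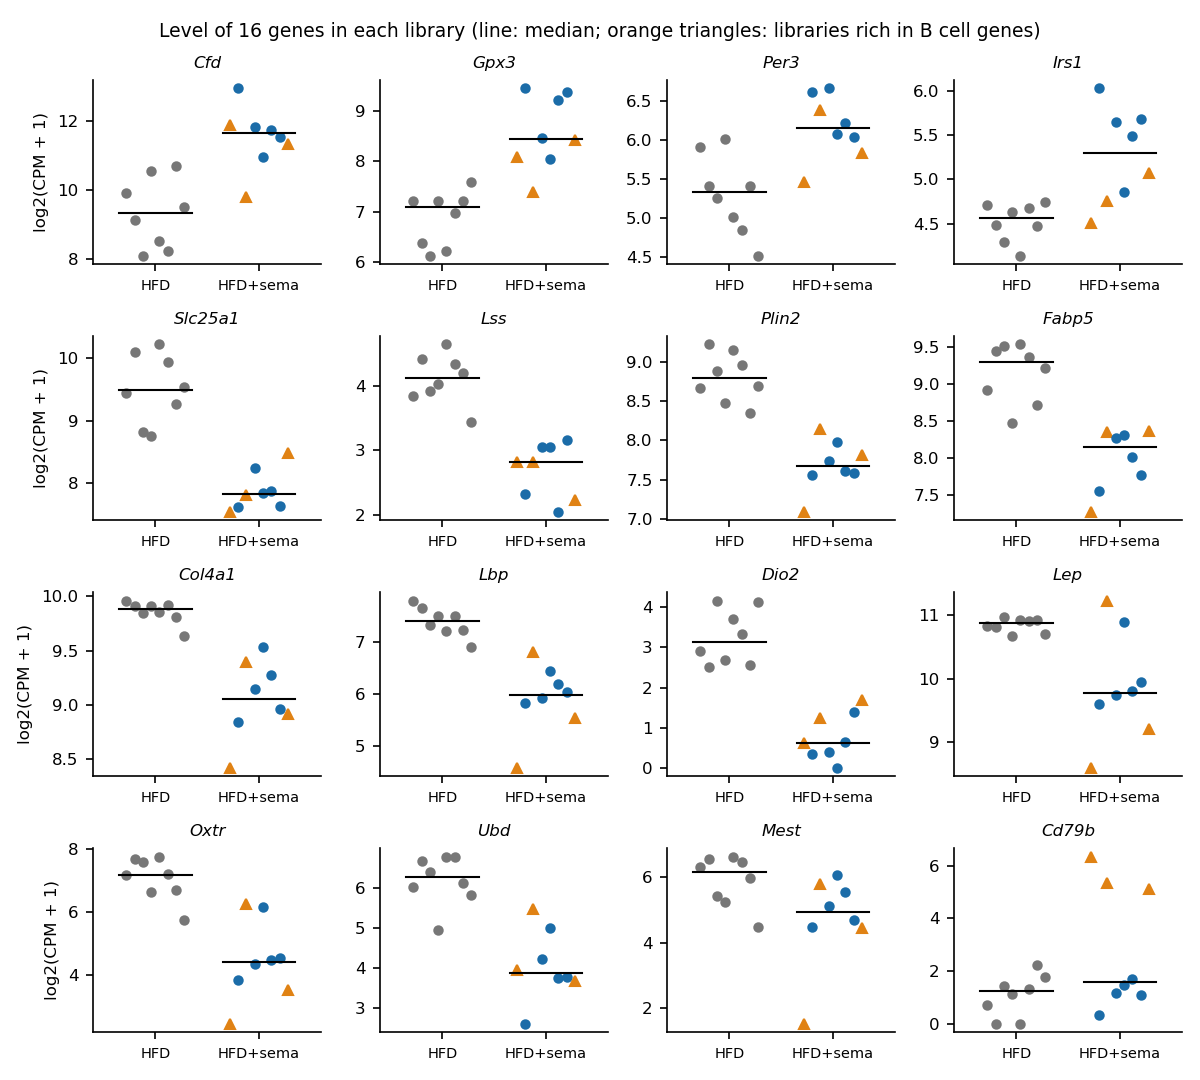
Level, as log2(CPM + 1), of 16 genes in each of the 8 HFD (grey) and 8 semaglutide (blue) libraries, with the median as a line and the semaglutide libraries rich in B cell genes as orange triangles. Vertical axes differ between panels and do not start at 0. Slc25a1, Lss, Plin2, Fabp5, Col4a1, Lbp and Dio2 do not overlap between the groups, while Lep and Oxtr show 2 semaglutide libraries within or above the HFD range and 6 below it.

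The spread of levels between libraries was also compared, as a description. Over the 10110 genes that averaged 3 log2 CPM or more, the median SD of log2 CPM was 0.350 with semaglutide and 0.311 with HFD, and 0.242 in the 5 semaglutide libraries not rich in B cell genes. The SD was over 2 times that of HFD in 1114 genes, and the reverse held in 374 genes. In the 5 libraries the first count was 309. Kbtbd11, a gene of fat cell differentiation, had an SD of 0.948 beside 0.0916 with HFD, and Ighm, the heavy chain of IgM, 1.25 beside 0.167.

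Each semaglutide library was also set against genes called without it. Of the genes called in a fit of the other 39 libraries, the library left out lay on the called side of the HFD mean in 90.9% (library 5) to 95.8% (library 8). For genes called lower the share ran from 91.3% (library 3) to 99.5% (libraries 6 and 7), and for genes called higher from 79.7% (library 1) to 93.7% (library 8). The median shift of genes called higher was 0.375 to 0.734 log2 in the library left out, beside 0.827 to 1 in the others. The median shift of genes called lower was smallest in library 5, at -0.511 log2, and largest in library 1, at -1.27. The HFD libraries were the same in all these fits and served both for the calls and as the reference mean. Part of these shares is therefore built in. No share over all genes tested stands beside them, so they do not measure replication.

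Lymphocyte genes were called higher, with their high values in semaglutide 1, 3 and 8. Of 6 B cell genes that passed the count filter, 5 were called higher, and of 17 T and NK cell genes 2, with medians of 2.50 and 2.67. Of the 6 B cell genes, 5 were also tested without the libraries rich in B cell genes, where 1 was called higher and 1 lower. The counts with all libraries therefore mainly describe semaglutide 1, 3 and 8. Cd79b had 79.8, 39.4 and 33.8 CPM in semaglutide 1, 3 and 8 and at most 2.28 CPM in the other 5. Ccr7, the homing receptor of naive T cells, rose by 3.77 ± 1.12 (adjusted p = 0.0457), and Ltb, lymphotoxin beta, by 4.22 ± 1.18 (adjusted p = 0.033). Of 10 lymph node stroma genes, 3 were called higher. With those libraries left out, 0 T cell and 0 stroma genes were called, Cd37 stood at -0.04, Ighd at -0.49 and Cxcl13 at 0.87. Ebf1 is in the B cell list but is also a factor of fat cells. It rose by 0.56 ± 0.13 (adjusted p = 0.0082) from a median of 411 to 650.6 CPM, and by 0.65 (adjusted p = 0.00543) without those libraries.

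**Figure D5:**
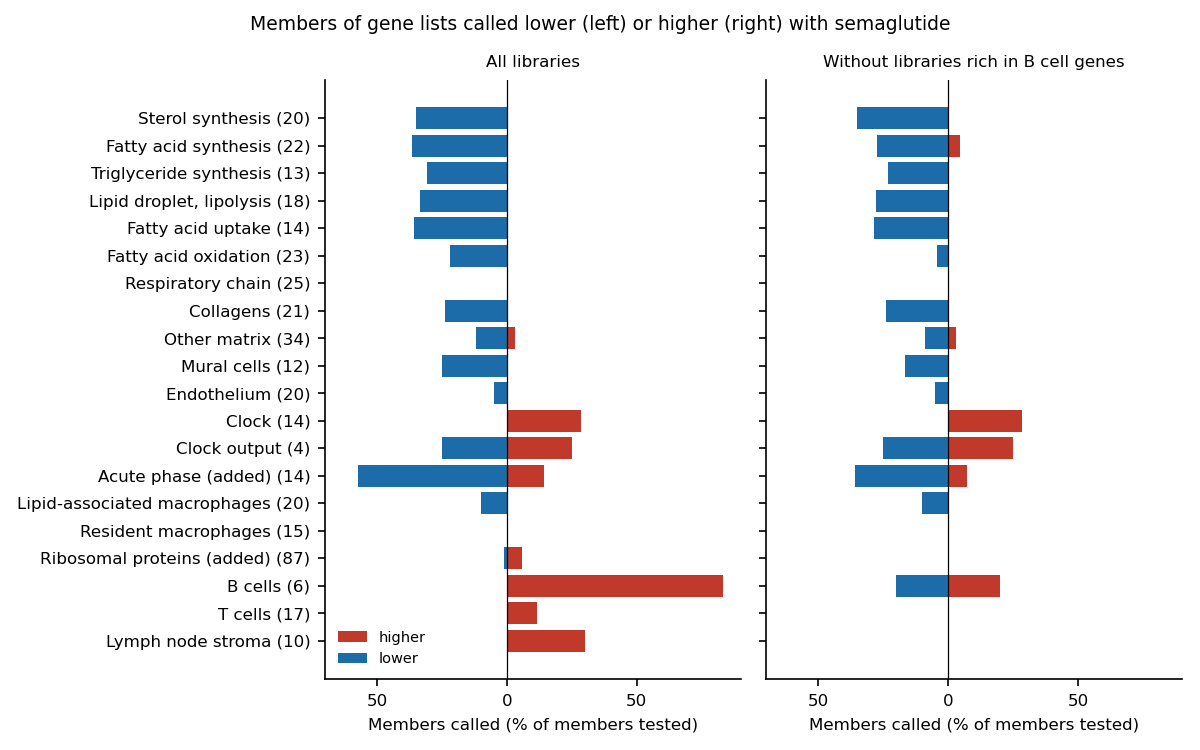
Share of the tested members of 20 gene lists that were called higher (red, right) or lower (blue, left) with semaglutide, in the fit of all libraries (left panel) and without the libraries rich in B cell genes (right panel). The number of members tested in the fit of all libraries stands in brackets. The lipid and collagen lists keep bars to the left in both panels, and the bars of T cells and lymph node stroma are absent from the right panel.

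Receptors of incretin drugs had few counts in this tissue. Glp1r had 3 counts over the 8 HFD libraries and 8 over the 8 semaglutide libraries, and Gcgr, the glucagon receptor, 13 and 3. Neither passed the count filter. Gipr, the receptor of the hormone GIP, had 0, 3.06 and 4.90 CPM with HFD and 0, 2.35 and 5.42 CPM with semaglutide (-0.19 ± 0.50, not called, and 0.25 without the libraries rich in B cell genes).

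Levels in the other groups of the series place a few of these genes. They share the HFD controls with the comparison above, so the values are given side by side only. Cfd had a median of 4810 CPM with ND, 6767 CPM with tirzepatide and 3903 CPM after the diet switch, beside 3209 CPM with semaglutide and 643 CPM with HFD. Ubd had medians of 1.24, 6.88 and 5.62 CPM in those 3 groups, beside 13.7 CPM with semaglutide. Slc25a1 had 634.8 CPM with ND, 227.5 CPM with tirzepatide and 417.3 CPM after the switch, so the semaglutide median of 226.3 CPM lay below the ND range of 472.9 to 946.4 CPM. Per3 likewise lay outside the ND range, with a lowest semaglutide value of 43.1 CPM and a highest ND value of 36.7 CPM. Plin2 (203.8 CPM) was below the ND median of 264.8 CPM with overlap of the ranges.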

How the data were processed

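Total RNA of mouse sWAT was extracted with Nucleozol, made into LexoGen QuantSeq libraries and sequenced on a HiSeq 4000, per the labels' protocols. The genome build was mm10, per the submitters' processing notes. Aligner, counter and annotation: not given in the sources used here. Counts per gene symbol (34843 symbols), as deposited by the authors, were used. The authors' normalized table is these counts times 1 factor per library and was not used. QuantSeq reads transcript ends, so CPM does not depend on length, and antisense or overlapping genes may share counts.

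edgeR 4.0.16 (R 4.3.3) was run with filterByExpr (15807 genes, 99.39% of counts), TMM and robust quasi-likelihood fits of 40 libraries with 1 mean per group. The contrast was semaglutide minus HFD. The SE is the fold change over the root of F. CPM use TMM-scaled library sizes. Libraries were not paired by replicate number in this fit. Same-numbered libraries correlated at -0.0281 to 0.389, above 0.1 in 3 of 8 pairs, and 3 of 8 libraries correlated best with their own number. These values do not settle whether the numbers mark pairs. Counts of any 2 libraries of a group differed beyond sampling noise (chi-square over its degrees of freedom at least 3.99).

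The comparison, its members and 49 gene lists were chosen with earlier results of these data known, and 4 lists were added after values were seen. Named genes were the 12 largest called changes in each direction (mean at least 3 log2 CPM, every semaglutide library on the called side of the HFD median, called also without libraries rich in B cell genes, no predicted genes), up to 4 members of a described list by adjusted p, and 18 fixed genes. Others are named as members of a list or as picked after their values were seen. Libraries with a B cell mean above 5 log2 CPM were called rich in B cell genes.

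Alternatives were DESeq2 1.42.0, its size factors, no filter, 10 counts in 8 libraries, only the 2 groups, a replicate block, limma-voom (limma 3.58.1), a 1.5-fold threshold, B cell covariates, libraries rich in B cell or muscle genes left out, and each library left out. In simulated data for this contrast (15562 genes) edgeR called 12 of 64 genes changed 1.5-fold, 37 of 67 changed 2-fold, 59 of 66 changed 4-fold and 2 unchanged genes. A few genes that met these rules are not reported here. Promoters came from RefSeq (GRCm38.p6).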

Additional observations from a re-analysis of the deposited data

Results flagged for a closer look

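Within the groups of 8, Dixon's test set a library apart from the other 7 for 4 of the 76 gene and group values checked. Chance gives about 1 in 20, so this share is near that of chance, and the 4 are listed as a description. Dock11 was 3.99 CPM in HFD 2, below 8.72 to 16.9 CPM in the other HFD libraries. Adam12 was 1.07 CPM in semaglutide 2, below 4.76 to 11.6 CPM in the others. Mest was 1.85 CPM in semaglutide 1, below 20.7 to 66.2 CPM, the library that also had the lowest Lep and Oxtr. That library had the highest B cell mean and the lowest sum of adipocyte genes of its group. Ucp1 was 11.4 CPM in semaglutide 8, above 0 to 0.68 CPM in the others.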

How the results depend on the processing

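The 656 called genes (241 higher, 415 lower) kept their sign under DESeq2, its size factors, no filter, a replicate block and limma-voom, as did the 655 tested under the stricter filter. Counts moved by more than 1.5 times as follows. DESeq2 called 390 higher. Fitting only the 2 groups called 1013, 669 of them lower. limma-voom called 1263 (490 higher, 773 lower). Without a count filter 160 were called higher, and a test against 1.5-fold called 46 (8 higher, 38 lower). The fit without libraries rich in B cell genes called 412, 127 of them higher. Without those rich in muscle genes 155 were called higher. With Cd79b as a covariate 345 were called (139 higher, 206 lower), and with the B cell mean, an alternative chosen after seeing the data, 383 (144 higher, 239 lower). The replicate block called 635 genes (580 of the 656), and 3 of 8 libraries correlated best with their own number. Leaving out 1 library gave 437 to 789 called genes, 126 to 332 higher and 298 to 457 lower. The higher count moved most, to 126 without HFD 2 and 131 without HFD 5. The cause was not tested.

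Of 125 named genes that were called, 97 were called with each library left out, and 82 of these under every other alternative except the 1.5-fold threshold. Signs turned in these cases. Without the libraries rich in B cell genes, Adipoq was 0.035, Sfrp5 0.13, Ucp1 -2.13, Gipr 0.25, Ighd -0.49, Cd37 -0.036, Lef1 -0.0078, Trbc2 -0.20 and Ccl21a -0.72. In the 2 groups alone without those libraries, Adipoq was 0.045, Sfrp5 0.14, Gipr 0.24, Ighd -0.50, Cd37 -0.023 and Trbc2 -0.20. With Cd79b as a covariate, Adipoq was 0.15, Sfrp5 0.31, Npr3 0.059, Gipr 0.084, Trbc2 -0.18 and the named gene Ighd -1.46e-05. With the B cell mean, Adipoq was 0.12, Sfrp5 0.32, Npr3 0.071, Gipr 0.066, Ighd -0.19, Lef1 -0.015, Trbc2 -0.081 and Ccl21a -0.32. limma-voom gave Ucp1 -0.21 and Gipr 0.21. With 1 library left out, Adipoq ran from -0.13 to 0.026, Sfrp5 from -0.21 to 0.086, Gipr from -0.45 to 0.000356 and Ucp1 from -1.05 (without semaglutide 8) to 2.88. The simulated recovery was 18.8% at 1.5-fold, 55.2% at 2-fold and 89.4% at 4-fold. It came from a single draw at these library sizes with the fitted spread. Other depths were not simulated, and the draw held no libraries rich in B cell genes.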

Other observations

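The most abundant change was in Bc1, a short noncoding RNA of rodents known mainly from neurons. Bc1 had 14020, 20250 and 28730 CPM with HFD and 3838, 7062 and 9749 CPM with semaglutide, and fell by 1.52 ± 0.29 (adjusted p = 0.000898), without overlap. The genes Lrrc17, Elp6, Akap5 and Tatdn1 fell by 1.596, 1.55, 1.48 and 1.47 beside it. In the 16 libraries Lrrc17 stayed at 39.3 to 45.2% of the Bc1 level, Elp6 at 27.7 to 29.6%, Akap5 at 53.2 to 56.2% and Tatdn1 at 46.8 to 50.4%, although the genes lie apart in the genome. Together the 5 took 5.01 ± 1.04% of counts with HFD (SD, n = 8) and 1.96 ± 0.53% with semaglutide, beside 2.45% with ND, 1.63% with tirzepatide and 1.34% after the diet switch. These genes were picked after their values were seen.

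Counts at mitochondrial transfer RNA genes moved in one direction. QuantSeq reads transcript ends, and overlapping or antisense genes may share counts. Whether these counts come from the transfer RNAs themselves was not tested. This list was added after values were seen. Of 19 tested, 7 fell and 0 rose, with a median of -0.75, and 3 fell without the libraries rich in B cell genes. mt-Tq had 245.9, 327.1 and 578.8 CPM with HFD and 137.5, 154.3 and 186.8 CPM with semaglutide (-1.15 ± 0.22, adjusted p = 0.000898). mt-Ta fell by 1.27 ± 0.26 (adjusted p = 0.00228) and mt-Tm by 1.02 ± 0.21 (adjusted p = 0.00167). All mitochondrial counts together took 11.8 ± 2.1% with HFD and 10.9 ± 1.77% with semaglutide.

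Of 87 ribosomal protein genes, a list also added after values were seen, 80 had a positive log2 fold change. The median was 0.29, and 5 were called higher and 1 lower. Without the libraries rich in B cell genes the median was 0.03 and 0 were called. Rps3a3 stood above the HFD range in 8 of 8 semaglutide libraries, but shares sequence with Rps3a1 and Rps3a2, which were also called.

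Prtn3, the neutrophil protease proteinase 3, had 0.56, 2.35 and 5.20 CPM with HFD and 6.65, 9.996 and 35.3 CPM with semaglutide (2.57 ± 0.41, adjusted p = 0.000129), without overlap. Its gene (chr10:79879667-79883174, GRCm38.p6) ends 7678 bases before Cfd starts, with Elane (chr10:79886312-79888216) between them. The highest Prtn3 level, 35.3 CPM, was in semaglutide 2, the library with the highest Cfd level, 7877 CPM. Prtn3 was picked after its values were seen.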
